A study of Mus musculus with 16 samples.

Results

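The genes that put peptides onto major histocompatibility complex (MHC) class I molecules were followed through 16 RNA sequencing libraries of mouse bone marrow stem and leukemia stem cells. The 9 genes were taken from a fixed list by name and not selected by their values, though earlier results of these data were known. They were the heavy chains H2-K1 and H2-D1, the light chain B2m, the transporter and loading genes Tap1, Tap2 and Tapbp, the immunoproteasome subunits Psmb8 and Psmb9, and the regulator Nlrc5. All 9 were found, among 26595 features in the CD93 experiment and among 36930 in the other, and all 9 passed the filter for testing in both. The CD93 experiment held leukemia stem cells (LSC) of CD93-/- origin (KO LSC, n = 3) and of BL/6 origin (WT LSC, n = 3), and naive LSK cells, the lineage-negative fraction with Sca-1 and c-Kit on its surface, from CD93-/- mice (KO LSK, n = 2) and BL/6 mice (WT LSK, n = 2). The drug experiment held LSC from BL/6 mice with chronic myeloid leukemia (CML) that received metoclopramide (MCP) at 10 mg/kg (MCP LSC, n = 3) or vehicle (Veh LSC, n = 3). Mice were labelled as 8 weeks old. Leukemia was made by injecting sorted LSK cells that carried BCR-ABL1-GFP into BL/6 recipients that had not been irradiated and so kept marrow cells of their own. The label for strain, C57BL/6, is absent from the KO samples, and no label says whether replicates came from separate animals, so the p-values measure the spread between libraries, which may be technical.

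Class I molecules carry peptides of cytosolic proteins to the surface, where CD8 T cells read them. The proteasome cuts the proteins, and Psmb8 and Psmb9 replace the constitutive subunits Psmb5 and Psmb6 in the immunoproteasome. Tap1 and Tap2 form the pump that brings the peptides into the endoplasmic reticulum, Tapbp (tapasin) tethers the empty class I molecule to that pump, and B2m is the light chain that each classical class I molecule needs. Nlrc5 is a transactivator that acts on class I promoters. Blood stem cells carry class I molecules, and low class I levels are one known way for tumor cells to be seen less by CD8 T cells.

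Most of these genes sit in one stretch of the MHC. On GRCm38, the build that the submitters' processing notes name, the GENCODE M21 annotation places Tapbp at chr17:33915899-33929292, H2-K1 at chr17:33996017-34000347, Psmb9 at chr17:34181987-34187764, Tap1 at chr17:34187553-34197225, Psmb8 at chr17:34197721-34201454, Tap2 at chr17:34203527-34216321 and H2-D1 at chr17:35262730-35267499. B2m lies apart at chr2:122147686-122153083, and Nlrc5 at chr8:94434356-94527272. Tap1 (plus strand) and Psmb9 (minus strand) start toward opposite sides and their exons share 212 bases, and since the library kit does not mark strand, reads from that stretch cannot be told apart. Of the 50-base words in the H2-D1 transcripts 13.9% also occur in other genes, and of those of H2-K1 6.87%, so part of their reads could be placed on a relative.

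Promoter windows of RefSeq (GRCm38.p6, 250 bases before to 50 after the start) were at hand for 7 of the 9 genes, all but Tap2 and Nlrc5. The windows of H2-K1 (chr17:34000298-34000597, minus strand), H2-D1 (chr17:35262844-35263143, plus strand), B2m (chr2:122147437-122147736, plus strand) and Tap1 (chr17:34187306-34187605, plus strand, which is also most of the Psmb9 window read from the other side) are shown because they hold the elements known from class I promoters and because Tap1 was at or near the lowest value in the LSC of the CD93 experiment. Capitals mark the matches to the motifs searched.
H2-K1: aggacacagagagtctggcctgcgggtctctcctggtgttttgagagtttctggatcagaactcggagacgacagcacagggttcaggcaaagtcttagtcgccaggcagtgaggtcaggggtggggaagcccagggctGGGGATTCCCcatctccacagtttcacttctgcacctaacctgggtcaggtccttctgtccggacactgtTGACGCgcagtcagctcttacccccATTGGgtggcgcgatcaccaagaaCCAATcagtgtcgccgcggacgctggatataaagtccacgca
H2-D1: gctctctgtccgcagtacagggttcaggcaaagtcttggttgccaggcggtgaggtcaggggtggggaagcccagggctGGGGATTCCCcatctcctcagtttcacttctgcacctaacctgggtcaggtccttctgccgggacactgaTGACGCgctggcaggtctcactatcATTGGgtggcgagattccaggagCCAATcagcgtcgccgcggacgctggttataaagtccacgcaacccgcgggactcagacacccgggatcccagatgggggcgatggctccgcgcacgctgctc
B2m: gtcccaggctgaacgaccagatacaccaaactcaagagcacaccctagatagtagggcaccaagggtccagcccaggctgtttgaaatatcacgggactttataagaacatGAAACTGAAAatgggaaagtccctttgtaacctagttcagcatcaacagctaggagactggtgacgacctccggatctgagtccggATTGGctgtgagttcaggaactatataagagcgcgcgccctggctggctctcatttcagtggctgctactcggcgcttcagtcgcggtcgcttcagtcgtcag
Tap1: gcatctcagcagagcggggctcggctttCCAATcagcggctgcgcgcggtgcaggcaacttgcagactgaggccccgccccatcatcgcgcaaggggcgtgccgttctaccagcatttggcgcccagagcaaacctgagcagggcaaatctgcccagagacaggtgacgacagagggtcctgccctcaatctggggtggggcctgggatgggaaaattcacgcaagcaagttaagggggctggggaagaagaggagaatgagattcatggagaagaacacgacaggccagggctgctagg
All motifs were searched on both strands. The NF-kB motif (GGGGATTCCC with any base allowed at position 4) was found in H2-K1 and H2-D1 and in 0.183% of all 32851 windows. The core of the X2 box, TGACGC, was found in the same 2 windows and in 7.4% of all windows. The Y box core CCAAT was found in 6 of the 7 windows and in 37.4% of all. The matches in Tap1 and Psmb9 are the same bases read from opposite sides, so these 2 windows are not independent. Only B2m matched the pattern searched for the interferon-stimulated response element core, present in 3.44% of all windows. The match was GAAACTGAAA, with any bases allowed at positions 5 and 6. Forms of this element with other letters were not searched, so the H2-K1 and H2-D1 windows are not shown to lack it. Psmb8 alone held a gamma-activated site (TTCCCAGAA here, with any bases allowed at positions 4 to 6), present in 8.3% of all windows. No motif overlapped another, and a match shows letters only, not binding.

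Values are RPKM, reads per kilobase of gene and 1e+06 mapped reads, a unit inferred from the values. The lowest value, 0.003 in the CD93 libraries and 0.001 in those of the drug experiment, stands for no signal. In the CD93 experiment 1230 to 2967 features lay above it in the KO LSC group, 5525 to 7956 in WT LSC, 14279 and 14906 in KO LSK and 14839 and 14865 in WT LSK. In the drug experiment they numbered 15587 to 16447 in MCP LSC and 19554 to 20014 in Veh LSC. Cd93 itself had 0.003, 44.3 and 0.003 RPKM in the KO LSC group, against 0.003, 0.003 and 5.74 in WT LSC. The KO LSK libraries had 1.01 and 2.10 RPKM of it, against 5.34 and 22.9 in WT LSK. Which part of Cd93 was deleted is not stated, so this is a weak check of genotype, and the library with 44.3 is called the library labelled KO LSC 2. The summed level of 8 sort and stem markers (Kit, Ly6a and others) was 3.18 to 67.2 RPKM in WT LSC, against 1231 to 1938 in WT LSK, with Slamf1, Procr, Esam and Mecom among those at the lowest value in every WT LSC library. In KO LSC the sum was 0.024 to 1.85 RPKM, against 940.2 to 1093 in KO LSK. The LSC libraries of the drug experiment had 174 to 185 RPKM with MCP and 256 to 265 with vehicle.

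**Figure D1:**
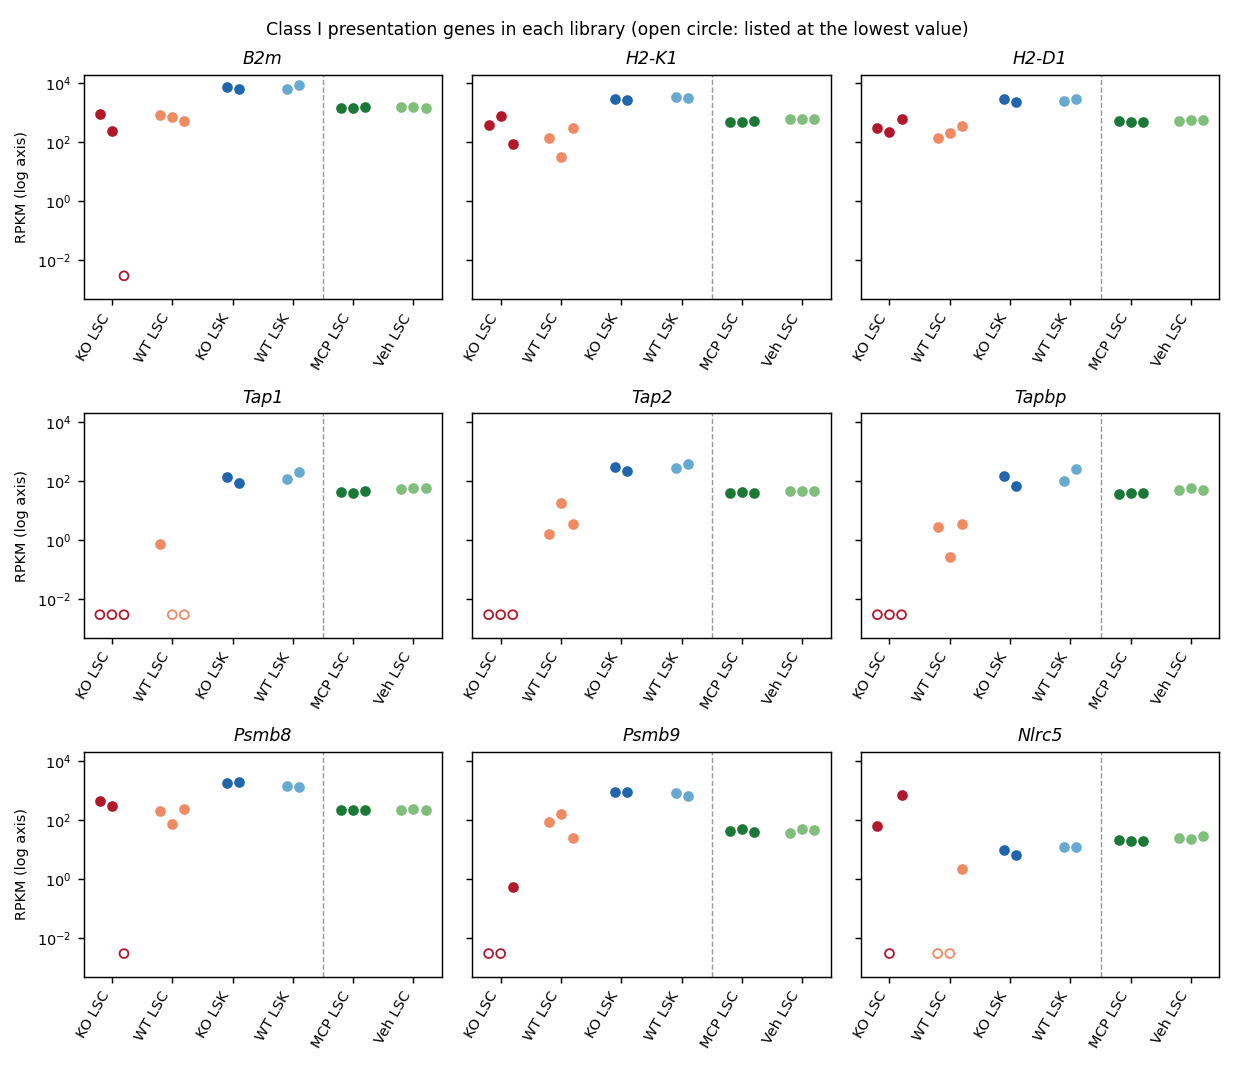
RPKM of each gene (log axis) in every library, 1 point per library, with the CD93 experiment left of the dashed line and the drug experiment right of it; open circles are libraries listed at the lowest value. LSC points of the CD93 experiment lie below the LSK points except for Nlrc5 in KO LSC libraries 1 and 3 (61.5 and 735 RPKM), and Tap1, Tap2 and Tapbp are at 0.003 in all 3 KO LSC libraries.

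The first question was how class I genes differ between leukemia stem cells and naive LSK cells of the same genotype. In WT cells all 9 genes were lower in every LSC library than in any LSK library, as were 56.3% of all tested genes. In the fit of all 10 libraries of the CD93 experiment (limma on log2(RPKM + 1), Benjamini-Hochberg adjusted over all 13485 tested genes), 6 of the 9 fell: H2-K1, H2-D1, Tap1, Tap2, Tapbp and Psmb9, where 42.3% of all tested genes fell. The median difference of the 9 genes was −3.59 on the log2 scale, beside −1.94 for all tested genes. Fewer cells of a type and less RNA per cell cannot be told apart in such bulk libraries.

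The light chain and the classical heavy chains were abundant in naive cells. B2m had 846, 736 and 552 RPKM in the WT LSC libraries, against 6382 and 8920 in WT LSK, where it ranked sixth and first among all features. H2-K1, a heavy chain of the classical class I molecules, had 138, 32.6 and 316 RPKM in WT LSC, against 3447 and 3276 in WT LSK. H2-D1, the other classical heavy chain, had 142, 213 and 369 RPKM in WT LSC, against 2479 and 2929 in WT LSK. For each of the 3 genes the highest WT LSC library was far below the lowest WT LSK library. The mean of H2-D1 was 241 ± 116 RPKM in WT LSC (SD, n = 3), 91.1% below the 2704 ± 318 of WT LSK (n = 2), with a log2 difference of −3.59 (SE 0.64, adjusted p = 0.00214, limma, two-sided). H2-K1 differed by −4.88 (SE 1.16, adjusted p = 0.00969, limma), and without WT LSK library 1 or 2 its adjusted p was 0.0557 or 0.0575. B2m differed by −3.43, which did not pass (SE 2.47, adjusted p = 0.309, limma).

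The transporter and loading genes were also lower in WT LSC than in WT LSK. Tap1 had 0.759, 0.003 and 0.003 RPKM in WT LSC, against 115 and 203 in WT LSK. Tap2, the partner of Tap1 in the pump, had 1.69, 18.7 and 3.51 RPKM in WT LSC, against 286 and 382 in WT LSK. Tapbp, the tether of the pump, had 2.78, 0.261 and 3.53 RPKM in WT LSC, against 101 and 263 in WT LSK. No WT LSC library reached 10% of the lowest LSK library in any of the 3 genes. Their means were 97.6% (Tap2) and 98.8% (Tapbp) below those of WT LSK, with log2 differences of −5.74 (SE 0.88, adjusted p = 0.000981) and −5.88 (SE 0.74, adjusted p = 0.0003). Tap1 differed by −6.99 (SE 0.49, adjusted p = 1.14e-05, limma), and 1.02% of all tested genes had a lower difference. That share was 4.2% for Tapbp, 4.7% for Tap2 and 9.9% for H2-K1. For H2-D1, B2m, Psmb9, Nlrc5 and Psmb8 it was 23.8% to 29.7%. The low values of the loading genes were not seen in the LSC of the drug experiment. In Veh LSC, Tap1 had 56.8 to 60.05 RPKM, Tap2 45.3 to 47.0 and Tapbp 49.9 to 60.2, though levels were not tested across experiments. Depth could be estimated from the spacing of values in 1 library, WT LSC 3 (71.1% of its low values were within 0.1 of a whole number of reads). There 3 reads of Tap1 would make 0.311 RPKM, a figure for read depth in that library only. RNA lost before sequencing was not tested. WT LSC 3 had 5525 features above the lowest value, against 14865 and 14839 in WT LSK, and the part of this in the differences was not tested.

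The immunoproteasome subunits and Nlrc5 were also lower. Psmb8, which replaces Psmb5, had 205, 75.6 and 247 RPKM in WT LSC, against 1416 and 1376 in WT LSK. Psmb9, which replaces Psmb6, had 88.8, 157 and 24.3 RPKM in WT LSC, against 810.2 and 677 in WT LSK. Nlrc5 had 0.003, 0.003 and 2.20 RPKM in WT LSC, against 12.5 and 12.1 in WT LSK. Here too the groups did not overlap, but the spread inside WT LSC was wide. Psmb9 fell by 3.38 on the log2 scale (SE 0.93, adjusted p = 0.0194, limma), and its adjusted p was 0.0849 and 0.0705 without WT LSK 1 and WT LSK 2, 0.168 with quantile scaling and 0.0669 with a pseudocount of 0.1. Psmb8 and Nlrc5 did not pass (adjusted p = 0.336 and 0.315, limma). Nlrc5 had 23.6 to 28.4 RPKM in Veh LSC of the drug experiment, again not tested across experiments.

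The spread in that fit is shared with KO LSC, where B2m, Psmb8 and Nlrc5 were at the lowest value in 1 library each. With only WT LSC and WT LSK in the fit all 9 genes passed, as did 40.9% of all tested genes. The adjusted p of B2m was then 0.000933, that of Psmb8 0.0176 and that of Nlrc5 0.0194 (limma). Of 8 neutrophil markers 3 rose in WT LSC and none fell, beside 1.45% of all tested genes that rose. S100a8 had 58652, 45367 and 35295 RPKM in WT LSC, against 2787 and 946 in WT LSK. Of 11 dendritic cell and macrophage markers 2 rose and 2 fell, and of 6 erythroid markers 1 rose and 2 fell, where 42.3% of all tested genes fell. The part of these markers in the class I values was not tested.

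The KO cells gave the same comparison in a second genotype. In KO LSC 7 of the 9 genes fell relative to KO LSK (B2m, H2-K1, H2-D1, Tap1, Tap2, Tapbp and Psmb9), where 61.7% of all tested genes fell. The median of the 9 was −6.69, beside −3.06 for all tested genes. H2-K1 had 380, 790 and 86.3 RPKM in KO LSC, against 2997 and 2836 in KO LSK. H2-D1 had 317, 229 and 623 RPKM in KO LSC, against 2954 and 2271 in KO LSK. Of 8 neutrophil markers 3 rose and 1 fell in KO LSC, beside 0.564% and 61.7% of all tested genes. Ngp, Mmp8 and Retnlg were at the lowest value in every KO LSC library, and Mmp8 also in every KO LSK library. The summed level of the 8 markers was 31522 to 55005 RPKM in KO LSC, against 2683 to 4385 in KO LSK. Of 11 dendritic cell and macrophage markers 1 rose and 2 fell, and of 6 erythroid markers 1 rose and 2 fell. The part of these markers in the class I values was not tested. H2-K1 and H2-D1 were the members with signal in each of the 3 KO LSC libraries.

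Each of the 3 KO LSC libraries gave 0.003 for Tap1, Tap2 and Tapbp. In KO LSK, Tap1 had 143 and 88.0 RPKM, Tap2 310 and 216, and Tapbp 146 and 71.8. B2m had 918, 253 and 0.003 RPKM in KO LSC, against 7370 and 6661 in KO LSK, so KO LSC 3 listed no light chain while it had 623 RPKM of H2-D1. Psmb8 had 448, 298 and 0.003 RPKM in KO LSC, against 1749 and 1930 in KO LSK. Psmb9 had 0.003, 0.003 and 0.56 RPKM in KO LSC, against 880.2 and 918 in KO LSK. Nlrc5 had 61.5, 0.003 and 735 RPKM in KO LSC, against 9.37 and 6.65 in KO LSK, which spans both sides of the naive level. Of the 27 member values in KO LSC 14 were at the lowest value, as were 4 of 27 in WT LSC and none of the 18 in either LSK group.

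With only KO LSC and KO LSK in the fit 5 genes passed, as did 72.9% of all tested genes, and B2m (adjusted p = 0.156) and H2-K1 (adjusted p = 0.0602, limma) were those lost. Without KO LSC 3, which had the fewest features, Psmb8 passed with a log2 difference of −2.33 (adjusted p = 0.0191, limma), while H2-K1 had an adjusted p of 0.0752. Without the library labelled KO LSC 2 Nlrc5 passed as higher in KO LSC, by 4.59 (adjusted p = 0.0158, limma), and without KO LSC 3 its difference was −0.17. H2-K1 also missed the threshold without KO LSK 1, KO LSK 2 or KO LSC 1 (adjusted p = 0.14, 0.124 and 0.0554), and B2m without KO LSK 1 or KO LSK 2 (0.156 and 0.139). Psmb8 passed without KO LSC 1 (adjusted p = 0.0426, limma).

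**Figure D2:**
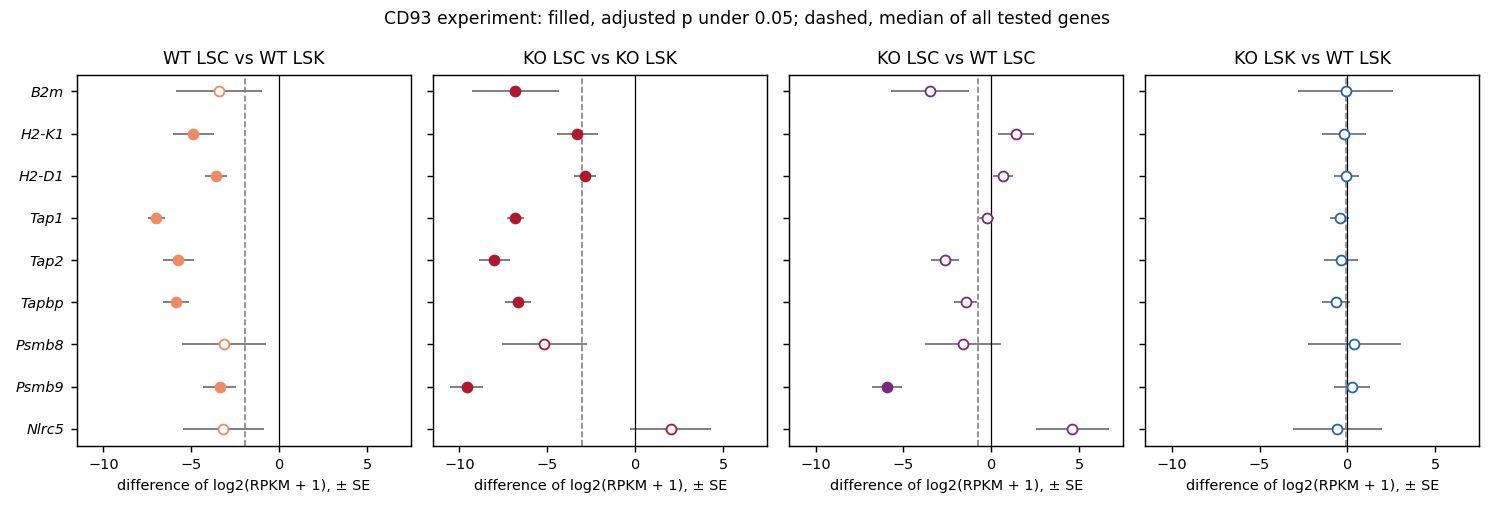
Differences of log2(RPKM + 1) between groups of the CD93 experiment (x axis, first group minus second) with their SE, for each of the 9 genes, filled where the adjusted p passed 0.05; the dashed line is the median of all tested genes. Tap1, Tap2 and Tapbp lie left of that median in both LSC comparisons with LSK, Psmb9 is the 1 filled point between KO LSC and WT LSC, and none is filled between KO LSK and WT LSK.

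The second question was what the genotype changed within each cell type. Between KO LSC and WT LSC 1 of the 9 genes fell, Psmb9, where 8.74% of all tested genes fell. Its 0.003, 0.003 and 0.56 RPKM in KO LSC stood against 88.8, 157 and 24.3 in WT LSC, a log2 difference of −5.94 (SE 0.84, adjusted p = 0.00294, limma). The call held without any single library (adjusted p = 0.000732 to 0.00897, limma), but not with quantile scaling (−3.30, adjusted p = 0.391) or with library weights (adjusted p = 0.305). Tap2 and Tapbp were at 0.003 in every KO LSC library and did not pass (adjusted p = 0.105 and 0.255, limma). Only 1230 to 2967 features lay above the lowest value in the KO LSC libraries, against 5525 to 7956 in WT LSC. Tap2 and Tapbp both passed with a pseudocount of 0.1 (adjusted p = 0.00704 and 0.0446), and Tap2 passed without WT LSC 1 (0.0434, limma).

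The heavy chains did not share that direction. H2-K1 had 380, 790 and 86.3 RPKM in KO LSC, against 138, 32.6 and 316 in WT LSC, so the groups overlapped (log2 difference 1.39, SE 1.04, adjusted p = 0.537, limma). H2-D1 averaged 390 ± 207 RPKM in KO LSC and 241 ± 116 in WT LSC (SD, n = 3 each; adjusted p = 0.56, limma). B2m and Psmb8 each had 1 KO LSC library at the lowest value and differed by −3.51 and −1.62 (adjusted p = 0.502 and 0.816), and Psmb8 by 1.22 without KO LSC 3. Nlrc5 differed by 4.60 (adjusted p = 0.259), and by 7.18 without the library labelled KO LSC 2 (adjusted p = 0.00739, limma). Irf8 and Ifnar2 among 23 regulators, a transcription factor and a receptor subunit for type I interferon, were at 0.003 RPKM in all 3 KO LSC libraries, against 19.0 to 46.7 and 92.7 to 477 in WT LSC. With Suz12 they were the regulators that fell, 3 of 23, beside 8.74% of all tested genes.

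In naive cells the genotype comparison called none of the 9 genes, while 1.83% of all tested genes were called. None of the 9 had an unadjusted p under 0.05, as 1173 of all 13485 tested genes did (limma). H2-K1 was lower in both KO LSK libraries (2997 and 2836 RPKM) than in WT LSK (3447 and 3276), as was Nlrc5 (9.37 and 6.65, against 12.5 and 12.1), where 20.5% of all tested genes were separated in that direction. Psmb8 was higher in both KO LSK libraries (1749 and 1930 RPKM) than in WT LSK (1416 and 1376), as was Psmb9 (880.2 and 918, against 810.2 and 677), where 14.0% of all tested genes were; the difference of Psmb9 was 0.28 and, with quantile scaling, −0.02. The difference between the genotype effects in LSC and in LSK was called for Psmb9 (−6.21, SE 1.32, adjusted p = 0.0341, limma), as for 6.08% of all tested genes, and for no other member.

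The third question was what metoclopramide did in LSC of WT origin. None of the 9 genes passed (limma, adjusted over 14005 genes), where 2.32% of all tested genes were called. An unadjusted p under 0.05 was reached by 4 of the 9, and by 3226 of all 14005 tested genes (limma). For 6 of the 9, all 3 MCP libraries were below all 3 Veh libraries, as for 25.6% of all tested genes. The median difference of the 9 was −0.16, beside −0.18 for all tested genes. With quantile scaling the median of all tested genes was −0.03.

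Heavy chains and light chain differed by small amounts. H2-K1 had 511, 505 and 535 RPKM in MCP LSC, against 618, 624 and 620.2 in Veh LSC, with no overlap. Its mean was 517 ± 16.2 with MCP and 621 ± 2.78 with vehicle (SD, n = 3 each), 16.7% lower with MCP (log2 difference −0.26, SE 0.06, adjusted p = 0.0602, limma), and it passed with quantile scaling (−0.32, adjusted p = 0.0223). H2-D1 had 539, 493 and 486 RPKM in MCP LSC, against 552, 564 and 555 in Veh LSC (adjusted p = 0.239). B2m had 1422, 1452 and 1572 RPKM in MCP LSC, against 1569.9, 1642 and 1511 in Veh LSC, which overlapped.

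The largest of the 9 differences were those of Tap1 and Tapbp. Tap1 had 44.5, 40.0 and 45.8 RPKM in MCP LSC, against 56.8, 60.05 and 58.9 in Veh LSC. Its mean was 25.8% lower with MCP (log2 difference −0.42, SE 0.09, adjusted p = 0.0588, limma). Tapbp had 37.0, 40.7 and 41.2 RPKM in MCP LSC, against 51.2, 60.2 and 49.9 in Veh LSC (26.3% lower, log2 difference −0.43, SE 0.11, adjusted p = 0.0778). For Tap1 and Tapbp 22.9% and 22.7% of all tested genes had a lower difference. Tap2, the other subunit of the pump, had 41.0, 42.9 and 40.4 RPKM in MCP LSC, against 45.3, 47.0 and 46.8 in Veh LSC (adjusted p = 0.3).

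Psmb8 had 227, 222 and 224 RPKM in MCP LSC, against 223, 248 and 217 in Veh LSC. Psmb9 had 43.3, 49.9 and 41.1 RPKM in MCP LSC, against 36.3, 50.3 and 46.4 in Veh LSC. Neither immunoproteasome subunit separated the groups. Nlrc5 had 21.0, 19.0 and 19.2 RPKM in MCP LSC, against 24.3, 23.6 and 28.4 in Veh LSC, 22.4% lower with MCP (adjusted p = 0.158, limma). Beside these genes, Cd74 and H2-Eb1, class II presentation genes counted here among dendritic cell and macrophage markers, were 18.0 to 25.0 and 3.68 to 8.32 RPKM with MCP, against 48.9 to 55.6 and 15.1 to 18.8 with vehicle (adjusted p = 0.0114 and 0.044). The sum of these 11 markers was 46.3 to 79.6 RPKM in MCP LSC and 136 to 147 in Veh LSC, with C1qb and C1qc at the lowest value in every MCP library, and their part in the class I values was not tested.

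**Figure D3:**
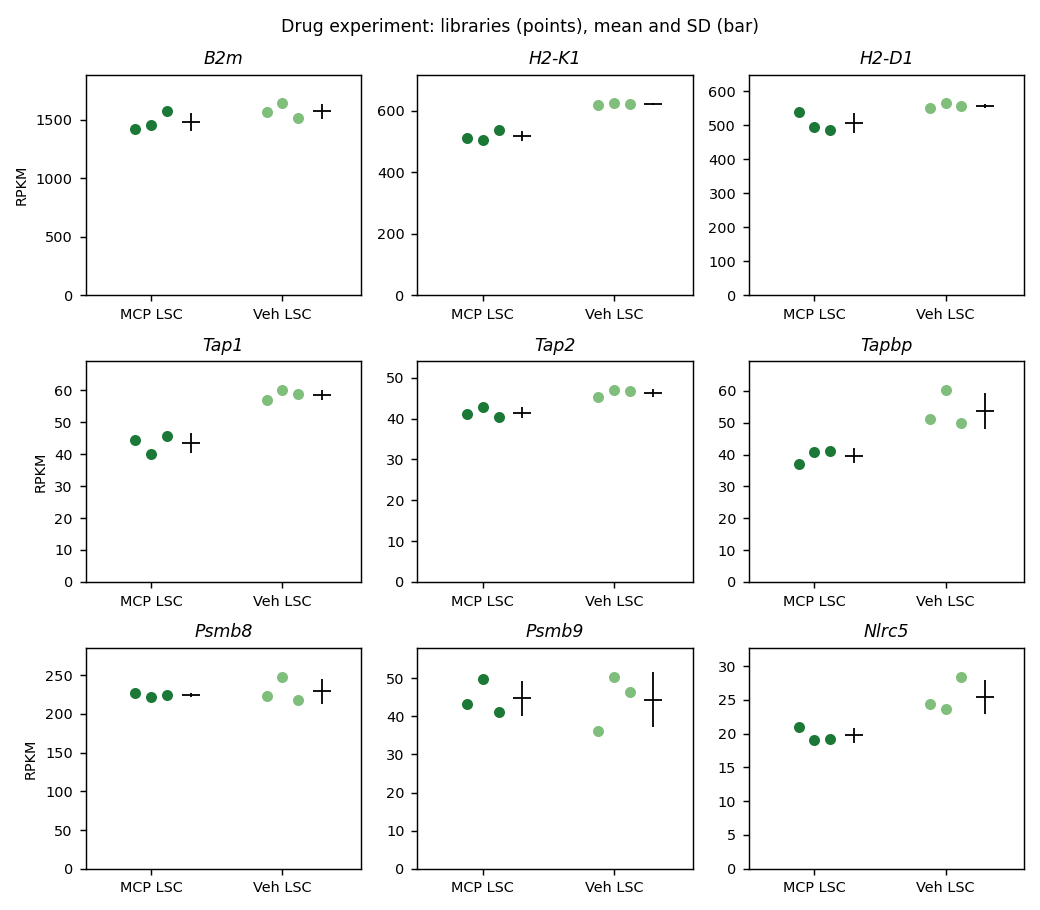
RPKM of each gene (y axis from 0) in the 3 MCP LSC and 3 Veh LSC libraries, 1 point per library, with the mean and SD beside them. H2-K1, H2-D1, Tap1, Tap2, Tapbp and Nlrc5 have all MCP points below all Veh points, and B2m, Psmb8 and Psmb9 do not.

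Ratios of 2 genes within a library do not depend on scaling between libraries. Psmb8 over its constitutive counterpart Psmb5 was 0.85, 0.419 and 1.22 in WT LSC, against 3.97 and 5.52 in WT LSK, so the immunoproteasome subunit was low relative to its counterpart in all 3 WT LSC libraries. Psmb9 over Psmb6 was 0.128, 0.582 and 0.0265 in WT LSC, against 0.827 and 0.986 in WT LSK. Psmb10, the remaining immunoproteasome subunit, over Psmb7 went the other way, with 4.004, 2.88 and 2.59 in WT LSC, against 2.44 and 2.19 in WT LSK. With 3 and 2 libraries no exact permutation test could have passed 0.05, and none was run. KO LSC did not show 1 direction. Psmb8 over Psmb5 was 44.3 in KO LSC 1 and 0.321 in KO LSC 2, against 5.06 and 4.45 in KO LSK. Psmb10 over Psmb7 was 21.6, 9.2 and 0.0781 in KO LSC, against 1.99 and 2.47 in KO LSK. Psmb9 over Psmb6 could be formed only in KO LSC 3, where it was 0.0005, against 0.928 and 0.946 in KO LSK.

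In the drug experiment Psmb8 over Psmb5 was 4.69, 4.11 and 3.52 in MCP LSC, against 5.66, 5.16 and 4.84 in Veh LSC. Psmb8 itself did not separate these groups, while Psmb5 had 48.4, 54.0 and 63.6 RPKM in MCP LSC, against 39.4, 48.0 and 44.9 in Veh LSC. Tap1 over Tap2 was 1.08, 0.933 and 1.13 in MCP LSC, against 1.26, 1.28 and 1.26 in Veh LSC. H2-K1 over H2-D1 was 0.947, 1.023 and 1.101 in MCP LSC, against 1.12, 1.105 and 1.117 in Veh LSC. Each of these ratios had its 3 MCP values below its 3 Veh values, and each reached p = 0.1 (exact permutation test, two-sided, adjusted p = 0.14 over 7 ratios), the smallest p that 3 against 3 libraries allow. Psmb10 over Psmb7 and H2-K1 over B2m gave the same result. Psmb9 over Psmb6 and H2-D1 over B2m overlapped between the groups (p = 0.2 and 0.6, exact permutation test). These tests were added after the values had been seen.

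**Figure D4:**
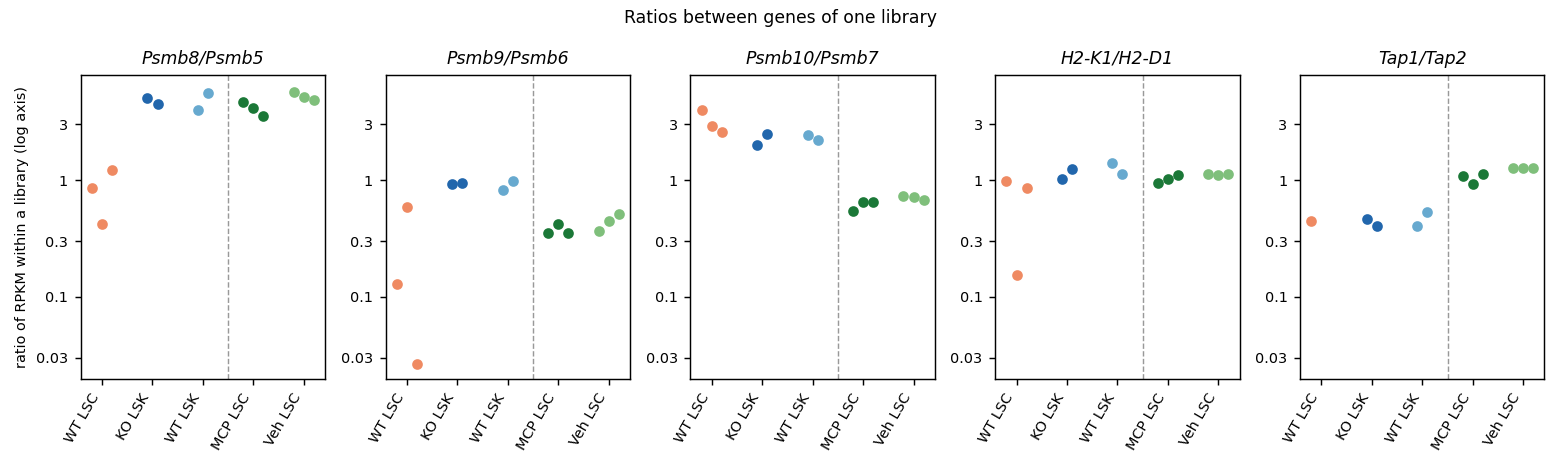
Ratios of RPKM between 2 genes of the same library (log axis), 1 point per library where both genes were above the lowest value. KO LSC is not drawn because many of its values were at the lowest value. Its Psmb8/Psmb5 ratios were 44.3 and 0.321 in the libraries where both genes had signal. Psmb8/Psmb5 is 0.419 to 1.22 in WT LSC and 3.97 to 5.52 in WT LSK, and Tap1/Tap2 is 0.933 to 1.13 in MCP LSC and 1.26 to 1.28 in Veh LSC.

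Other genes of the pathway were compared between WT LSC and WT LSK beside all tested genes, of which 42.3% fell (median −1.94). Of 13 other class I heavy chain genes 8 fell and none rose (median −3.37), and 11 had a negative difference. Fcgrt went the other way without being called, with 269, 517 and 401 RPKM in WT LSC, against 123 and 80.8 in WT LSK. With quantile scaling 3 of the 13 fell and 1 rose, where 4497 of all 13485 tested genes were called in either direction. H2-Q7, a Qa-2 antigen, had 4.19 to 5.72 RPKM in WT LSC, against 445 and 530.5 in WT LSK (adjusted p = 0.000627). Cd1d1, which presents lipids, was at 0.003 in every WT LSC library, against 55.5 and 80.9 in WT LSK. H2-M3, which presents formylated peptides, was at most 0.305 RPKM in WT LSC, against 60.8 and 94.8 in WT LSK. These genes belong to a multigene family, and how the authors split shared reads is not given in the sources used here.

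Of 14 peptide supply and loading partners 1 fell, the peptidase Thop1, at most 0.299 RPKM in WT LSC, against 47.2 and 48.9 in WT LSK. Calr, the chaperone calreticulin, had 1272 to 1658 RPKM in WT LSC, against 428 and 808 in WT LSK, which did not pass (adjusted p = 0.377). None of the 3 constitutive proteasome counterparts passed. Of 23 class I regulators 10 fell (median −2.26), a share close to the 42.3% of all tested genes. Among them were Irf1, an interferon-induced activator of class I genes (16.8, 0.379 and 27.9 RPKM in WT LSC, against 82.9 and 252 in WT LSK; adjusted p = 0.0326), and the Y box binders Nfya, Nfyb and Nfyc, at 0.003 in every WT LSC library. Of 20 interferon response genes 10 fell (median −3.52), also beside 42.3% of all tested genes. Among them was the GTPase Irgm1, at 0.003 in every WT LSC library, against 69.5 and 157 in WT LSK. With quantile scaling 6 of the 23 regulators fell and 1 rose, and 9 of the 20 interferon response genes fell and none rose. In that setting 4497 of all 13485 tested genes were called in either direction.

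Few of these genes were called with metoclopramide, where 2.32% of all tested genes were. Creb1, a factor that binds the X2 box, fell to 49.8, 32.1 and 40.8 RPKM in MCP LSC, against 81.5, 68.8 and 72.1 in Veh LSC (log2 difference −0.86, adjusted p = 0.044, limma), 1 of 23 regulators. Oas2, an interferon-induced RNA sensor, fell to 3.62, 3.48 and 4.35 RPKM in MCP LSC, against 8.87, 10.1 and 8.43 in Veh LSC (adjusted p = 0.0394), 1 of 20 interferon response genes. None of 12 other heavy chain genes, 14 loading partners or 3 constitutive counterparts passed.

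The genes most like the mean profile of the 9 members, among those that averaged at least 5 RPKM, were Ccdc84, Ccm2, Cpsf3l, Slc25a13 and Gabarapl1 in the CD93 experiment (Pearson r of 0.982 to 0.983 over 10 libraries, 7610 candidates). In the drug experiment they were Fam32a, Dnajc14, Msn, Zmynd11 and Ncl (r of 0.992 to 0.995 over 6 libraries). These libraries share the step between LSC and LSK or between treatments, so many genes correlate. Among the members Tapbp (0.97) and Tap1 (0.967) were closest to the mean profile in the CD93 experiment, and Nlrc5 had an r of −0.16.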

How the data were processed

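RNA of sorted marrow cells was amplified with SMART-Seq v4, per the labels' protocols. The values deposited by the authors are RPKM, a unit inferred from the values. The submitters' processing notes name GRCm38 (mm10), while for the aligner, counter and annotation a name is not given in the sources used. The plan assumed this unit. Groups came from sample titles; the source field of the drug samples says LSK where the titles say LSC. Values were tested as log2(RPKM + 1) in R 4.3.3 by limma 3.58.1 with an intensity trend, keeping genes that reached 1 RPKM in 2 or more libraries (13485 and 14005). The 10 CD93 libraries shared 1 fit and the drug experiment had its own, so levels are not tested across experiments. P-values were two-sided, Benjamini-Hochberg adjusted, with a threshold of 0.05. The fit was tested on simulated data. Deviations of same-numbered libraries from their group means correlated across genes at −0.28 to 0.04, so the numbers were not taken as pairs.

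The 9 members, the wider lists and the tests were chosen with earlier results of these data known. All 9 members are named, with list genes by smallest p; Calr, Cd93, S100a8, Cd74, H2-Eb1, and the list genes given as examples, were chosen after their values were seen. The ratios were tested with exact permutation tests. Depth was estimated from the spacing of low values; a 70% share within 0.1 of whole reads was required, and 1 of 16 libraries met it. Another search range and a looser share were tried after seeing the estimates and not kept. Fold changes on this scale understate changes of low genes. Single-gene results of a few list genes are not reported here.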

Additional observations from a re-analysis of the deposited data

Results flagged for a closer look

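Psmb9 was singled out because the test of its genotype difference in LSC against that in LSK passed. Its log2 difference was −5.94 between KO LSC and WT LSC and 0.28 between KO LSK and WT LSK. The LSC difference passed the test (adjusted p = 0.00294) and the LSK difference did not (adjusted p = 1, limma). The difference between these effects was −6.21 (SE 1.32, adjusted p = 0.0341, limma). In KO LSC 2 of the 3 libraries listed Psmb9 at the lowest value, and with quantile scaling the LSK difference was −0.02. The LSC call was lost with quantile scaling (adjusted p = 0.391) and with library weights (0.305). The number of features above the lowest value also differed, with 1230 to 2967 in KO LSC, against 5525 to 7956 in WT LSC, and its part in the result was not tested.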

How the results depend on the processing

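In WT LSC against WT LSK the number of the 9 genes called was 6, and 5 with quantile scaling and with a pseudocount of 0.1 (both without Psmb9, adjusted p = 0.168 and 0.0669), 3 with library weights, 9 with only the compared groups, and 4 to 6 when 1 library was left out. In KO LSC against KO LSK it was 7, 6 with no filter and with a pseudocount of 0.1 (both without B2m, adjusted p = 0.0529 and 0.0709), 5 with only the compared groups, 3 with library weights and 5 to 8 with 1 library left out. In KO LSC against WT LSC it was 1, 0 with quantile scaling and with library weights, 3 with a pseudocount of 0.1, and 1 to 2 with 1 library left out. In KO LSK against WT LSK it was 0 in every setting, and with MCP it was 1 with quantile scaling and 0 in the others. The library weights did not converge fully. The replicate number as a block gave 5 calls in each LSC against LSK comparison (without Psmb9, adjusted p = 0.0702, in WT, and without B2m and H2-K1, 0.0687 and 0.0952, in KO, limma), 1 in KO LSC against WT LSC and 0 in the others. A crossed block in KO LSK against WT LSK also gave 0. It was added after the data were seen, because deviations of same-numbered LSK libraries from their group means correlated at −0.28. Psmb9 between KO LSK and WT LSK was −0.0247 with quantile scaling. With 1 library left out, directions turned for Nlrc5 in KO LSC against KO LSK (−0.17 to 4.59), for B2m (−0.35 to 0.13), H2-D1 (−0.25 to 0.13) and Tapbp (−1.35 to 0.016) in KO LSK against WT LSK, for Psmb8 in KO LSC against WT LSC (−3.19 to 1.22), and with MCP for Psmb8 (−0.0653 to 0.0283) and Psmb9 (−0.11 to 0.12), none of which passed in the turned direction. The causes were not tested. Depth is not known for 15 libraries, so a gene listed at the lowest value is not shown to be absent.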
